A study of Mus musculus with 13 samples.

Results

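The Hdac9 Slc8a1 colonocytes are 300 of the 3415 colon epithelial cells that were profiled from antibiotic-treated mice, and of 4183 cells in all. They were the cells with the highest mean deposited value over 5 genes, Hdac9, Slc8a1, Paqr8, Mgll and Tsc22d2. Before the ranking, 464 cells with fewer than 500 detected genes were set aside, and so were 171 cells in which the goblet cell genes Muc2, Fcgbp and Zg16 summed to 30 or more per 10000 UMI (unique molecular identifiers, counts of single RNA molecules). That left 2780 cells. The genes of the score therefore had to be high in the 300 cells, and the goblet genes low. All other differences were seen in the same cells and the same contrast that chose them, so they are given as descriptions with no test.

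The antibiotic-treated mice were of genotype wild type C57BL/6J (batch1), and the comparison mice in the series were Germ-free C57BL/6J (batch2). The antibiotics, the length of treatment and the age of the mice are not given in these sources. Colons were taken whole, and EPCAM+ CD45- cells of each condition were pooled over mice and sorted so that CD44+ (proliferative) and CD44- (differentiated) cells came in equal numbers, before droplet 3' sequencing. The shares of cells below are therefore shares of a sorted mixture. Cell names carry a number. The antibiotic cells fall into cell sets 1, 2 and 3, which hold 89, 85 and 126 of the 300 cells, and because all came from 1 pool the cell sets are not replicates of the treatment.

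Absorptive colonocytes make up most of the surface of the colon. They take up salt, water and microbial short-chain fatty acids, which they burn by mitochondrial oxidation, and their gene use changes both from crypt base to surface and from the proximal to the distal end of the organ. Among the genes of the score, Hdac9 encodes a class IIa histone deacetylase that holds back MEF2 transcription factors, Slc8a1 encodes NCX1, the plasma membrane exchanger that trades sodium for calcium, and Mgll encodes monoacylglycerol lipase, which releases fatty acids from monoglycerides and degrades the endocannabinoid arachidonoylglycerol. Paqr8 encodes a membrane progestin receptor, and Tsc22d2 a member of the TSC22 domain family.

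Some droplet barcodes occurred in more than 1 antibiotic cell set. The 3415 antibiotic cells carried 2578 different barcodes, and 810 barcodes were in more than 1 cell set (27 of them in 3). Cell sets 1 and 2 shared 315 barcodes, cell sets 2 and 3 shared 501, and cell sets 1 and 3 shared 48. In the first pair of sets the deeper entry of a barcode had a median of 15.9 times the UMI of the shallower one (interquartile range 14.8 to 16.7), and in the second pair 9.73 times (8.79 to 10.5). No barcode was shared within the germ-free cells or between conditions. Of the 300 cells, 128 carried a shared barcode and 28 were the shallower entry of one, which left 272 cells without them. The other antibiotic cells had 3115 entries, of which 2306 were left. The counts of genes, the list medians and the genes of the lists were recomputed without shallower entries. None of 113 calls was then lost, and the largest change of a log2 ratio among them was 0.27. With these entries left out before the cells were chosen, 272 of the same cells were among the new 300, and the calls of Cldn8 and Aqp8 were lost.

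The 300 cells were deeper than the other antibiotic cells as a whole. Their median was 10095.5 UMI (9035, 8667 and 11744.5 in cell sets 1, 2 and 3), against 6320 UMI in all other antibiotic cells and 9125.5 UMI in the other differentiated colonocytes defined below. Together they held 3834738 UMI, so that 3 counts, the limit used for a gene with none, correspond to 0.782 CPM (UMI of a gene per 1000000 UMI of the group). Mitochondrial genes took 17.0% of their UMI and 11.8% of the UMI of the others (18.1%, 16.7% and 16.5% against 12.1%, 11.3% and 12.1% by cell set). Both move with the group. With every cell thinned to 2000 UMI before the choice 13 of the 113 calls were lost, and with stricter cells (1000 UMI or more, and 15% or less of them mitochondrial) 11 were lost. Both settings chose other cells in part: 206 of the 300 cells were chosen again after thinning, and 113 of the 300 met the stricter limits and were chosen again. Among genes described below, thinning took the log2 ratio to 1.20 for Chst11, 0.99 for Abhd6, 0.82 for Pdk4, 0.55 for Rora, 0.32 for S100g, -0.79 for Foxa3, -0.76 for Scnn1a, -0.73 for Isg15, Napepld and Lpin1, -0.44 for Aqp8 and -0.41 for Nrbp2. Stricter cells took it to 1.07 for St3gal5, 0.89 for Nr1d2, 0.52 for Rora, -1.01 for Saa1, -0.997 for Sult1a1, -0.95 for Napepld, -0.84 for Cldn8, -0.82 for Ier2, -0.54 for Aqp8, -0.48 for Isg15 and -0.46 for Scnn1a. These calls ended either because the ratio passed under 2-fold or because the 3 cell sets no longer went the same way. With totals that left out mitochondrial genes, Gm42418, AY036118 and Lars2, 1 was lost, that of Gsdmc4.

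Markers of differentiated absorptive colonocytes were present in the 300 cells. All 300 had a higher mean over the absorptive colonocyte list than over the crypt list. Krt20, a keratin of differentiated surface cells, was at 543 and 471 CPM in the 300 cells and in all others, Slc26a3, the chloride and bicarbonate exchanger, at 322 and 327 CPM, and Car1, a carbonic anhydrase, at 8038 and 7292 CPM. Other markers of the list stood lower in value: Lypd8 was at 1990.2 and 3899.95 CPM, Guca2a at 1305 and 2475 CPM and Car4 at 152 and 275 CPM. The sort also took CD44+ proliferative cells, which are among the other cells. A gene is called higher or lower here if its CPM + 1 differed by 2-fold or more, the same way in all 3 cell sets. By that rule 340 of 6329 ranked genes (5.37%) were higher in the 300 cells and 849 (13.4%) lower, and since the rule for the cells used this contrast nothing is read from these shares. Without shallower entries the counts were 342 and 845, and with the choice of cells repeated they were 339 and 869. The median log2 ratio over all ranked genes was -0.15.

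Levels of most markers of other cell types were low. Of the 13 measured crypt base and stem genes 11 were lower, with a median log2 ratio of -2.01, among them Axin2, a Wnt target, at 2.09 and 14.9 CPM. Of 14 cell cycle genes 13 were lower, with a median of -2.13, including Mki67, which marks dividing cells, at 7.56 and 65.3 CPM. All 9 other goblet markers were lower, as the goblet limit would largely fix, and they summed to 112 CPM (72.5 to 142 over cell sets) against 1010.1 CPM. Enteroendocrine markers summed to 11.7 CPM against 23.4 CPM, with 6 of 10 at 0 UMI, including the hormones Pyy, Gcg and Insl5. Tuft cell markers summed to 6.00 CPM against 31.9 CPM, with Avil and Il25 among those at 0 UMI. None of 8 immune markers had a UMI in the 300 cells, which allows up to 0.782 CPM for each. Stromal and endothelial markers summed to 4.69 CPM against 3.64 CPM (3.38 to 6.17 and 3.44 to 3.84 over cell sets), with 6 of 8 at 0 UMI and 17 UMI of the endothelial marker Pecam1.

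The genes of the score set the identity of the group. Hdac9 (chr12:34047580-34917095) was at 365, 356 and 227 CPM in the 300 cells of cell sets 1, 2 and 3, against 27.7, 23.4 and 20.5 CPM in the other cells. Slc8a1 (chr17:81373105-81738377) was the most abundant, at 1549, 1512 and 1673 CPM against 310.4, 298 and 328 CPM. Paqr8 (chr1:20890606-20939650) was at 219, 230.2 and 294 CPM against 25.6, 24.8 and 22.8 CPM. The levels by cell set did not overlap between the groups for any of these genes, which the choice by the mean over the score favours. Mgll (chr6:88724412-88828360) was at 387, 322 and 399.99 CPM against 65.9, 71.96 and 79.04 CPM, and Tsc22d2 (chr3:58414715-58466783) at 807, 790.2 and 917 CPM against 129.97, 109 and 121 CPM. Not every cell showed every gene. Of the 300 cells, 81 had a UMI of all 5 genes, 123 of 4, 87 of 3 and 9 of 2.

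Shares of cells with at least 1 UMI are given as description only, since the choice by these genes raises them in the 300 cells. The other antibiotic cells include the 464 cells with few genes and were shallower, with a median of 6320 UMI against 10095.5 UMI. The part of depth in the shares was not tested, and the interval covers counting error only. Hdac9 was seen in 57% of the 300 cells (exact Clopper-Pearson interval 51.2% to 62.7%), in 10.3% of all other antibiotic cells and in 3.51% of the 171 cells set aside for goblet genes, which had a median of 7412 UMI and serve as background. Slc8a1 was seen in 99.7%, 48.3% and 15.2% of these groups, Paqr8 in 62.7%, 12.3% and 3.51%, and Mgll in 85.0%, 24.1% and 9.94%. Tsc22d2 differed from the rest: it was seen in 87.7%, 38.1% and 52.6%, so its share in goblet-rich cells lay above that in the other cells as a whole.

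The score had no gap at the limit. It ran from 2.96 in the highest cell through a median of 1.43 to 1.20 in the last cell inside and 1.20 in the first cell outside, and 62 of the 2780 cells lay within 0.05 of that limit. The group is thus a range at the top of a gradient. Within it the levels fell with rank, as the choice fixes. Hdac9 was at 428, 335 and 156 CPM in ranks 1 to 100, 101 to 200 and 201 to 300, and at 95.3 CPM in the next 300 cells. Slc8a1 was at 2102, 1619 and 1144 CPM and then at 935 CPM. Leaving out 1 of the 5 genes at a time and taking the 300 highest by the other 4 returned between 231 (without Tsc22d2) and 260 (without Paqr8) of the same cells.

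Promoters of 4 of the genes that lead the group are shown because these genes were high together, and the bases printed lie just before the start of each gene, on its own strand (RefSeq, GRCm38.p6). Of the 5 genes of the score and the 12 highest genes described next, 16 had an entry, and Tsc22d2 had none. Capitals mark a match to 1 of the first 2 of 4 motifs, searched on both strands. These 2 were AGGTCA, the half-site that nuclear receptors such as PPARs bind in pairs, and CACGTG, the E-box bound by factors of the clock and of MYC families. Hdac9 (minus strand, chr12:34917096-34917345) held neither of them, Mgll (plus strand, chr6:88724162-88724411) held an E-box, Tbc1d9 (plus strand, chr8:83165102-83165351) held the half-site, and Elovl6 (plus strand, chr3:129532136-129532354) held it on the other strand, read as TGACCT.
Hdac9: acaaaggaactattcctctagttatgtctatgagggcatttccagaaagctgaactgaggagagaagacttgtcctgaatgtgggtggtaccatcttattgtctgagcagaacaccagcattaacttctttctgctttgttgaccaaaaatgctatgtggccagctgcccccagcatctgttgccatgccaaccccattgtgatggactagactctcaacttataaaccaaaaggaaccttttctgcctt
Mgll: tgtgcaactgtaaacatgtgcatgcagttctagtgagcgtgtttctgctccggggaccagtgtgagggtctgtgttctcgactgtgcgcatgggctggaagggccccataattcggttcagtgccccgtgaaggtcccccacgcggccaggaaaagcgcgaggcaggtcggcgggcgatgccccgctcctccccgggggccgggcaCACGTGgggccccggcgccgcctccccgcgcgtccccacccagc
Tbc1d9: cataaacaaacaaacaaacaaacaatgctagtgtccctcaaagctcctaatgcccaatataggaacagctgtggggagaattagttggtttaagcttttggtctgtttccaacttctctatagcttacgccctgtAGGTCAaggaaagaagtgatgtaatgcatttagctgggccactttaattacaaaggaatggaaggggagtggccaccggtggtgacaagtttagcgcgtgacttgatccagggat
Elovl6: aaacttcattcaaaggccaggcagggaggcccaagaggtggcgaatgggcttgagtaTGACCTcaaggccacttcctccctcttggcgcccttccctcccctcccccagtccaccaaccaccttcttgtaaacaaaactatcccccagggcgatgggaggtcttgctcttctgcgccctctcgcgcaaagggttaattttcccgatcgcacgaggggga
The half-site was found in 4 of the 16 promoters (25%: Tbc1d9, Crybg2, Pparg and Elovl6) and in 14.02% of 32851 RefSeq promoters in the table. By the gene starts of GENCODE, the matches of Crybg2 and Pparg lie within the gene and not before it. The E-box was found in 1 of 16 (6.25%) and in 6.02% of all. The other 2 motifs are not capitalised: the GC box GGGCGG was in 7 of 16 (43.8%) and 32.7% of all, and the TATA box TATAAA in 1 of 16 (6.25%), that of Hdac9, and 12.4% of all. These matches describe letters only, and no binding was measured.

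The 12 highest genes outside the score included St3gal5, Gpat3, Cidec, Elovl6 and Me1, whose products act in lipid metabolism. St3gal5, a ganglioside sialyltransferase (chr6:72097592-72154571), was at 28.5, 19.5 and 35.5 CPM in the 300 cells of cell sets 1, 2 and 3, against 4.88, 5.04 and 4.52 CPM in the others. It was 6.18-fold (4.804 to 7.92) higher, where the bracket is a 95% interval for counting error only. Its 113 UMI lay in 36 of the 300 cells, and 10 cells held 61.9% of them. Gpat3, which adds the first fatty acid to glycerol phosphate (chr5:100845713-100899102), was at 106, 141 and 137 CPM against 29.3, 20.8 and 24.4 CPM, 5.34-fold (4.76 to 5.98) higher. The cell sets did not overlap for either gene. Cidec, a protein of the lipid droplet surface (chr6:113424634-113435760), was at 56.9, 66.8 and 74.5 CPM against 13.5, 12.1 and 14.5 CPM, 5.01-fold (4.28 to 5.85) higher. Elovl6, an elongase of saturated fatty acids (chr3:129532355-129638495), was at 447, 367 and 472 CPM against 108, 106 and 119.5 CPM, 3.89-fold (3.67 to 4.12) higher. Me1, the malic enzyme that supplies NADPH (chr9:86581371-86695953), was less even, at 72.5, 18.5 and 49.1 CPM against 11.98, 8.64 and 8.64 CPM, 5.14-fold (4.26 to 6.197) higher. Its lowest level among the 300 cells, in cell set 2, still lay above all sets of the others.

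Pparg stood out by abundance among the 12. It encodes PPAR gamma, the nuclear receptor for fatty acid ligands that drives lipid storage genes and is known for its high level in colonocytes (chr6:115360951-115490399). It was at 1088, 1134 and 1195 CPM against 292, 270.2 and 258 CPM, 4.27-fold (4.12 to 4.43) higher, and was seen in 96.0% of the 300 cells, 55.8% of the others and 44.4% of the goblet-rich cells. In ranks 1 to 100, 101 to 200 and 201 to 300 it was at 1690.5, 1053 and 772 CPM, and at 559 CPM in the next 300. The other genes of the 12 were Tbc1d9 (145 and 31.1 CPM), of the TBC domain family that acts on Rab GTPases, Crybg2 (271 and 61.5 CPM), Simc1 (43.8 and 9.08 CPM), Fam43a (37.8 and 8.69 CPM), Nt5c2 (150.2 and 37.1 CPM), a cytosolic nucleotidase, and Chst11 (23.7 and 5.199 CPM), a chondroitin sulfotransferase. Their folds lay between 4.05 and 4.82. Without cell set 3 the log2 ratio of Chst11 fell from 2.00 to 1.36. Chst11 had a UMI in 36 of the 300 cells. Of its 91 UMI, 1 cell held 30.8% and 10 cells held 63.7%.

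**Figure D1:**
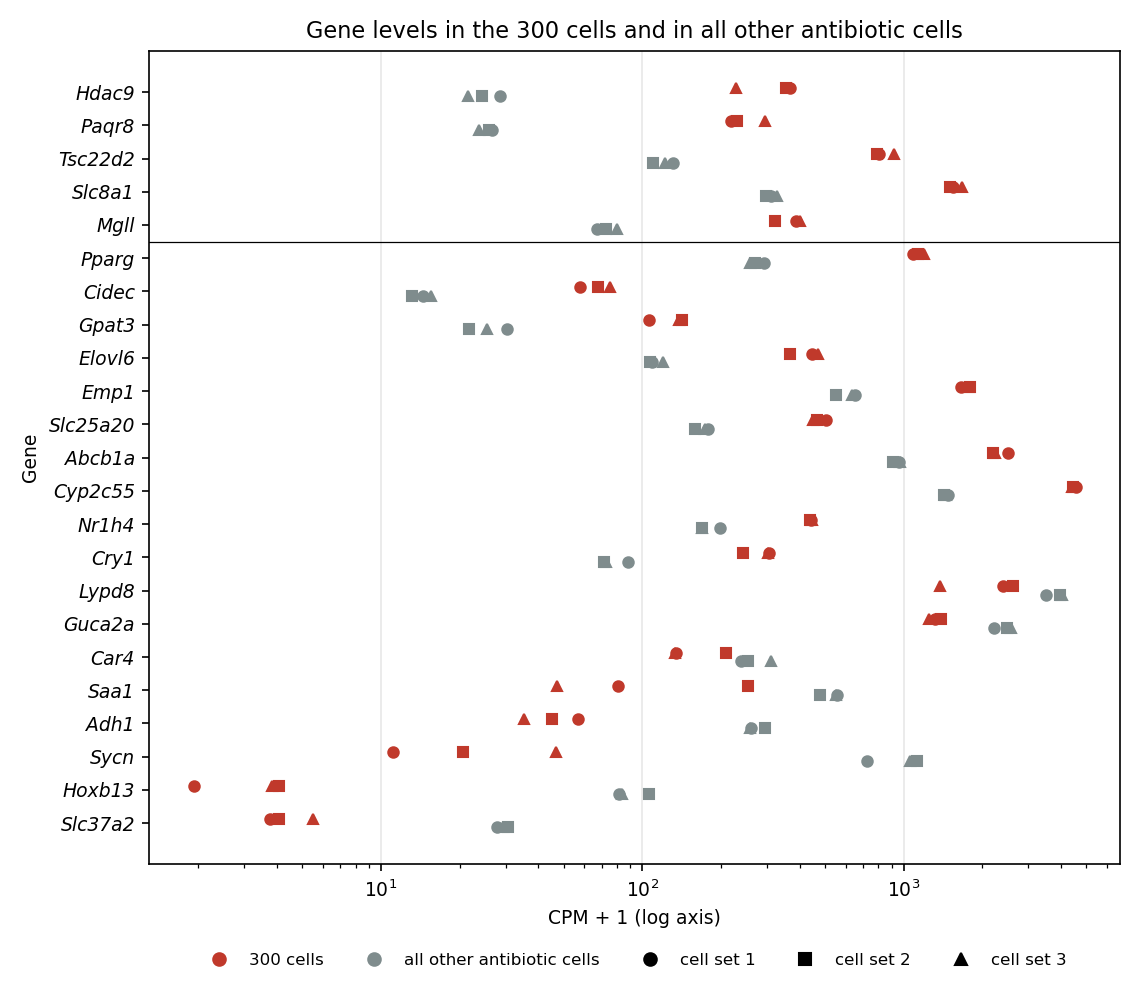
CPM + 1 (log axis) of 23 genes in the 300 cells (red) and in all other antibiotic cells (grey), with 1 point for each of cell sets 1, 2 and 3. The genes of the score lie above the black line, and below it Pparg, Gpat3 and Elovl6 lie to the right of the other cells in each cell set while Sycn and Hoxb13 lie to the left.

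Some fatty acid oxidation genes and PPAR targets were also higher. Of 19 measured members 6 were higher and none lower, with a median log2 ratio of 0.55, beside 5.37% of ranked genes higher and a median of -0.15. Pparg was among the 6. Slc25a20, the carrier that brings acylcarnitines into mitochondria, was at 503, 465 and 449 CPM against 178, 158 and 172 CPM, 2.78-fold (2.64 to 2.93) higher. The 300 cells of every cell set lay above the others for Slc25a20, as the call requires.

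Ppara, the receptor PPAR alpha, was at 222 and 86.95 CPM, and Pdk4, a kinase that restrains pyruvate oxidation, at 241 and 88.5 CPM. Ehhadh, of the peroxisomal chain, was at 61.5 and 29.2 CPM and close to the limit: its log2 ratio of 1.05 was 0.88 without cell set 1 and 0.99 without cell set 2. The mitochondrial share given above moves with this list, and its part was not tested. The median of the list kept its sign in every alternative, between 0.43 and 0.66.

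Genes of fatty acid and triglyceride synthesis went both ways. This list was put together after values had been seen. Of 24 measured members 6 were higher and 4 lower, beside 5.37% and 13.4% of ranked genes, and the second count is near its background. The median of the list was -0.12 and changed sign in 3 alternatives. The higher ones were Gpat3, Cidec, Elovl6 and Me1 with Lpin2, a phosphatidate phosphatase (492 and 136 CPM), and Acacb, the acetyl-CoA carboxylase whose product restrains mitochondrial uptake of fatty acids (33.9 and 8.23 CPM). Acly, which makes cytosolic acetyl-CoA from citrate, was at 27.5, 21.6 and 24.3 CPM against 115, 126 and 109 CPM, 4.73-fold (3.86 to 5.87) lower. Fads2, a desaturase of polyunsaturated fatty acids, was at 4.59, 11.3 and 7.898 CPM against 92.9, 109 and 98.9 CPM, 12.9-fold (9.02 to 19.2) lower. Both were below the others in each cell set, as the call requires. Scd2, a desaturase of saturated fatty acids, was at 80.6 and 249.5 CPM, and Lpin1 at 2.35 and 7.83 CPM. Fatty acid synthase itself (Fasn, 32.1 and 35.3 CPM) differed by less than the limit.

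Calls among partners of the genes of the score were few, as were those among all ranked genes (5.37% higher and 13.4% lower). Nothing particular to these partners is read from the counts of their lists, here and below. Of 13 measured genes of acylglycerol and endocannabinoid metabolism, which take in the neighbours of Mgll, 1 was higher and 2 lower, with a median of 0.19 that changed sign in 4 alternatives. Abhd6, another monoacylglycerol hydrolase, was at 140.5, 92.5 and 124 CPM against 65.1, 52.1 and 50.96 CPM, 2.22-fold (2.000 to 2.46) higher, and its log2 ratio was 0.99 after thinning cells to 2000 UMI. Dagla, which makes the endocannabinoid that Mgll breaks down, was at 4.43 and 10.6 CPM. Napepld, which makes anandamide, was at 2.87 and 8.197 CPM, and its log2 ratio of -1.25 was -0.91 without cell set 3. Plin2, the coat protein of lipid droplets, was at 186 and 96.96 CPM and not called.

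Of 15 measured calcium transport genes 2 were higher and 1 lower, with a median of 0.12 that changed sign in 6 alternatives. Atp2b1, the plasma membrane calcium pump of the PMCA family, exports calcium as the Slc8a1 exchanger does, and was at 927, 822 and 1053 CPM against 417, 355 and 419 CPM, 2.41-fold (2.33 to 2.503) higher. Atp2a3, a pump of the endoplasmic reticulum, was at 63.1 and 150.4 CPM. S100g, the calcium-binding protein calbindin of the intestine, was at 204 and 83.3 CPM, but 1 cell held 44.7% of its 781 UMI in the group and 10 cells held 80.9%. It was at 58.6, 75.4 and 443 CPM by rank, its log2 ratio of 1.28 was 0.60 without cell set 1, and it turned to -0.54 with 200 cells, -0.39 without Hdac9 in the score and -0.41 without Mgll.

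None of 7 measured class IIa deacetylases and partners other than Hdac9 was called, with a median of 0.38. Hdac4, a relative of Hdac9, was at 118, 115 and 132 CPM against 81.6, 75.5 and 76.9 CPM, a ratio of 1.601-fold (1.45 to 1.77). The corepressor Ncor1 was at 406 and 290.2 CPM and the MEF2 factor Mef2a at 106 and 77.3 CPM. None of 6 other histone deacetylases was called (median -0.25), nor any of 7 relatives and partners of Paqr8 (median -0.13, with the other sign in 5 alternatives), of which Adipor2 was at 135 and 119 CPM and Paqr5, another membrane progestin receptor, at 116 and 86.3 CPM. Of 9 genes around TSC22 proteins and WNK kinases 2 were lower (median -0.40): Stk39, the kinase SPAK of salt transport, at 32.3 and 79.6 CPM, and Nrbp2, at 4.95 and 11.6 CPM. The log2 ratio of Nrbp2, -1.08, was -0.80 without cell set 1, -0.93 without cell set 2 and -1.79 without cell set 3. Against the other differentiated colonocytes described later none of the 9 was called, with log2 ratios of -0.73 for Stk39 and -0.90 for Nrbp2.

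The position of the cells along the colon was read from 2 lists. All 7 measured distal genes were lower, with a median log2 ratio of -3.37, and the percent of cells with a higher mean over distal than over proximal genes was 0% of the 300 (0 of 300 cells, which allows a share of up to 1%) and 20.2% of the others. Hoxb13, the posterior homeobox gene (chr11:96194316-96197447), had 9 UMI in the 300 cells. It was at 0.918, 3.08 and 2.82 CPM against 80.6, 105 and 82.3 CPM, 38.2-fold (20.1 to 83.6) lower, and with shallower entries left out before the choice its log2 ratio of -4.76 was -4.10. Hoxd13 was at 0.522 and 14.7 CPM from 2 UMI, a ratio of 28.2-fold (7.77 to 234), and Hoxd11 had 0 UMI against 7.74 CPM, at least 9.89-fold lower by the limit of 3 counts. The posterior homeobox genes thus lay at or near the counting limit in these cells. Slc37a2, a sugar phosphate exchanger, was at 3.65 and 28.6 CPM, and Cldn8, a tight junction claudin, at 13.04 and 28.4 CPM. The call of Cldn8 was lost without cell set 3 (a log2 ratio of -0.93 from -1.07).

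Proximal genes did not all follow. Of 10 measured, 3 were higher and 1 lower, beside 5.37% and 13.4% of ranked genes. The median of the list was 0.55, and -0.01 without Mgll in the score. Cyp2c55, a fatty-acid epoxygenase of the proximal colon (chr19:39007019-39042693), was at 4557, 4465 and 4416 CPM against 1475, 1431 and 1447 CPM, 3.09-fold (3.03 to 3.14) higher, and was seen in all 300 cells, 56.5% of the others and 31.6% of the goblet-rich cells. Grin3a, a glutamate receptor subunit, was at 65.2, 129 and 98.2 CPM against 26.2, 30.04 and 41.04 CPM, and the third was S100g. Grin3a had a UMI in 61 of the 300 cells, and 10 cells held 62.3% of its 371 UMI. At 96.7 CPM it was close to the next 300 cells by score (97.0 CPM) and below the Clca4a, Slc13a1 and Grin3a cells described later, which it helped to choose (229.98 CPM). Adh1, an alcohol dehydrogenase, went the other way, at 56.01, 44.2 and 34.4 CPM against 261, 293 and 257 CPM, 6.28-fold (5.38 to 7.37) lower. Mettl7b was at 275 and 263 CPM and Fabp2, the intestinal fatty acid binding protein, at 440.4 and 832 CPM, neither of them called. Clca4a (105 and 86.3 CPM), Slc13a1 (72.2 and 50.3 CPM), Osr2 (70.7 and 38.6 CPM) and Defb37 (32.9 and 21.6 CPM) were not called either. The name proximal thus rests on the low distal genes and on Cyp2c55 more than on the list as a whole. Low distal genes were not particular to the 300 cells. Distal genes were above proximal ones in 3.15% of the S100g and Defb37 cells described later. The share was 0.803% in the Clca4a, Slc13a1 and Grin3a cells and 19.1% in the Saa1, Aqp8 and Car4 cells. The mean log2 CPM of the 7 distal genes minus that of the 10 proximal genes was -5.31 in the 300 cells and -1.44 in the others, and -5.18 and -1.42 with shallower entries left out before the choice.

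Of the distal genes, Hoxb13, Sycn and Atp12a were among the 12 lowest genes outside the score. Sycn, syncollin, known from secretory granules (chr7:28540885-28542209), was at 10.1, 19.5 and 45.7 CPM against 725, 1124 and 1057 CPM, 34.9-fold (29.00 to 42.5) lower, and without cell set 3 its log2 ratio went from -5.08 to -5.97. Atp12a, the potassium-absorbing proton pump of the distal colon, had 2 UMI against 41.1 CPM, a ratio of 78.9-fold (21.8 to 652). Fxyd4, a regulator of the sodium pump, had 4 UMI against 104 CPM, a ratio of 99.6-fold (38.9 to 366). Kcnma1, the large-conductance potassium channel, was at 2.35 and 92.5 CPM. B3gnt7, a glycosyltransferase, was at 3.13 and 123 CPM, and Fut9, a fucosyltransferase, had 2 UMI against 36.1 CPM. Without cell set 3 the log2 ratio of Fut9 went from -4.61 to -5.35. Mptx1, mucosal pentraxin, was at 13.8, 20.6 and 24.8 CPM against 809, 982 and 1375 CPM, 54.6-fold (43.8 to 68.96) lower. Sval1 had 5 UMI against 149 CPM, and Timp3, a metalloprotease inhibitor, 3 UMI against 47.9 CPM. The last of the 12 were Htr4, a serotonin receptor (9.91 and 239 CPM), and Ttr, transthyretin, with 1 UMI against 29.6 CPM. In every cell set the 300 cells lay below the others for each of the 12, which the choice of named genes required.

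Most functional genes of the mature colonocyte were not called. Of 15 absorptive colonocyte genes 1 was higher and 1 lower, beside 5.37% and 13.4% of ranked genes. The median of the list, -0.02, changed sign in 7 alternatives. It was 0.65 with stricter cells, a choice that kept 113 of the 300 cells. Emp1, an epithelial membrane protein of surface cells, was at 1657, 1791 and 1773 CPM against 649, 550.2 and 636 CPM, 2.86-fold (2.78 to 2.94) higher. Aqp8, a water channel of the surface, was at 11.2 and 24.7 CPM, and its log2 ratio of -1.08 was -0.74 without cell set 1 and -0.85 with shallower entries left out before the choice. Lypd8, which keeps flagellated bacteria away from the surface, was at 2411, 2629 and 1381 CPM against 3509.6, 3971 and 4025 CPM, short of the limit.

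Of 12 brush border genes 1 was higher, beside 5.37% of ranked genes, and the median of the list was 0.29. It was Eps8, which bundles and caps actin in microvilli, at 1469, 1283 and 1815 CPM against 467, 425 and 487 CPM, 3.43-fold (3.32 to 3.53). Of 18 genes that carry ions and short-chain fatty acids none was higher and 3 were lower, with a median of -0.25, beside 13.4% of ranked genes lower, a share near that of the list. The 3 were the 3 subunits of the epithelial sodium channel, which absorbs sodium in the distal colon. Scnn1a was at 15.6 and 34.7 CPM, Scnn1b had 0 UMI against 4.53 CPM (at least 5.79-fold lower), and Scnn1g had 1 UMI against 4.28 CPM, a ratio of 16.4-fold (2.899 to 653). Scnn1b and Scnn1g did not reach the 20 CPM that ranked genes needed, so they are not part of the 13.4%. Nr3c2, the mineralocorticoid receptor that turns on this channel, was at 2054 and 1144 CPM and not called, while Hsd11b2, the enzyme that guards that receptor from glucocorticoids, was at 40.2 and 125 CPM and lower. Of 6 glucocorticoid response genes, with a median of -0.94, Hsd11b2 and 2 others were lower, which were Per1 (12.5 and 29.7 CPM) and Zbtb16 (2.87 and 26.3 CPM).

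Of 15 genes of drug and xenobiotic metabolism 2 were higher and 2 lower, beside 5.37% and 13.4% of ranked genes. The same shares stand beside the counts of transcription factors and clock genes that follow, and nothing is read from counts near them. The median of the xenobiotic list, -0.02, changed sign in 13 alternatives and was 0.59 with stricter cells. Abcb1a, the efflux pump P-glycoprotein, was at 2513, 2207 and 2244 CPM against 959, 908 and 973 CPM, 2.44-fold (2.38 to 2.497) higher, and Cyp2c65, a neighbour of Cyp2c55 on chromosome 19 that could share reads with it, at 426 and 176 CPM. Sult1a1, a sulfotransferase (86.3 and 199 CPM), and Gstm1, a glutathione transferase (26.9 and 57.8 CPM), were lower, the second not without cell set 3 (a log2 ratio of -0.97). Among 22 measured intestinal transcription factors, with a median of -0.18, Nr1h4, the bile acid receptor FXR, was higher, at 442, 438 and 447 CPM against 198, 169 and 168 CPM, 2.54-fold (2.402 to 2.68), as was Isx, a repressor of carotenoid uptake, at 134 and 60.8 CPM. Foxa2 (1 UMI against 9.30 CPM) and Foxa3 (2.09 and 7.98 CPM), forkhead factors, were lower. Of 11 clock genes 2 were higher and 1 lower, with a median of 0.22. Cry1, a repressor of the clock, was at 305, 242 and 301 CPM against 87.1, 70.3 and 71.5 CPM, 3.87-fold (3.598 to 4.15) higher, and Nr1d2, a haem receptor of the clock, at 171 and 66.9 CPM. The third was Rora, at 5.22 and 13.7 CPM, whose log2 ratio of -1.24 turned to 0.55 after thinning to 2000 UMI and to 0.52 with stricter cells.

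Of 11 measured antimicrobial and acute phase genes none was higher and 3 were lower, with a median of -0.52, beside 13.4% of ranked genes lower and a median of -0.15. Saa1, an acute phase lipid carrier, was at 79.9, 254 and 46.3 CPM against 556, 478 and 549 CPM, 4.85-fold (4.404 to 5.36) lower. A single cell held 51.4% of its 416 UMI, and its log2 ratio of -2.27 was -3.20 without cell set 2 and -1.64 without cell set 3. Pigr, the receptor that carries IgA to the lumen, was at 525, 667 and 564 CPM against 1286, 1352 and 1281 CPM, 2.26-fold (2.16 to 2.36) lower. Gsdmc4, a gasdermin, was at 111 and 233 CPM, and its call was lost without cell set 1 (-0.99). Reg3b, a bactericidal lectin, was at 465, 564 and 94.8 CPM against 115, 219 and 129 CPM, and the groups overlapped. Of 10 interferon and antigen presentation genes 1 was lower, Isg15, an interferon-induced ubiquitin-like protein, at 31.2, 10.3 and 13.5 CPM against 36.7, 48.2 and 55.5 CPM. The median of this list was -0.44, and 0.22 with stricter cells, and its share of lower genes was near that of all ranked genes (13.4%).

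Of 14 immediate early and dissociation genes 2 were lower, Ier2 (111 and 251 CPM) and Nr4a1 (25.6 and 93.1 CPM), and none was higher (median -0.17, and 0.02 with stricter cells), a share near the 13.4% of ranked genes lower. Of 11 cholesterol genes, with a median of -0.15, 1 was lower, beside the same 13.4% of ranked genes. It was Soat1, which esterifies cholesterol (5.74 and 27.5 CPM). Of 3 nuclear-retained RNAs Malat1 was at 32606, 37622 and 36848 CPM against 25383, 25990.3 and 26603 CPM, a ratio of 1.37-fold (1.36 to 1.38), Neat1 at 1000.1 and 559.7 CPM, and Kcnq1ot1 was lower (4.43 and 31.7 CPM). Kcnq1ot1 lies antisense within Kcnq1, and reads of the 2 may not have been told apart. The median of the 3 was 0.46. Genes called higher were long: the median span from start to end was 65.0 kb, and 35.7% spanned over 100 kb, against 8.38 kb and 9.60% for genes called lower and 33.3 kb and 18.3% for all ranked genes. The part of gene length and of nuclear RNA in the calls was not tested.

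**Figure D2:**
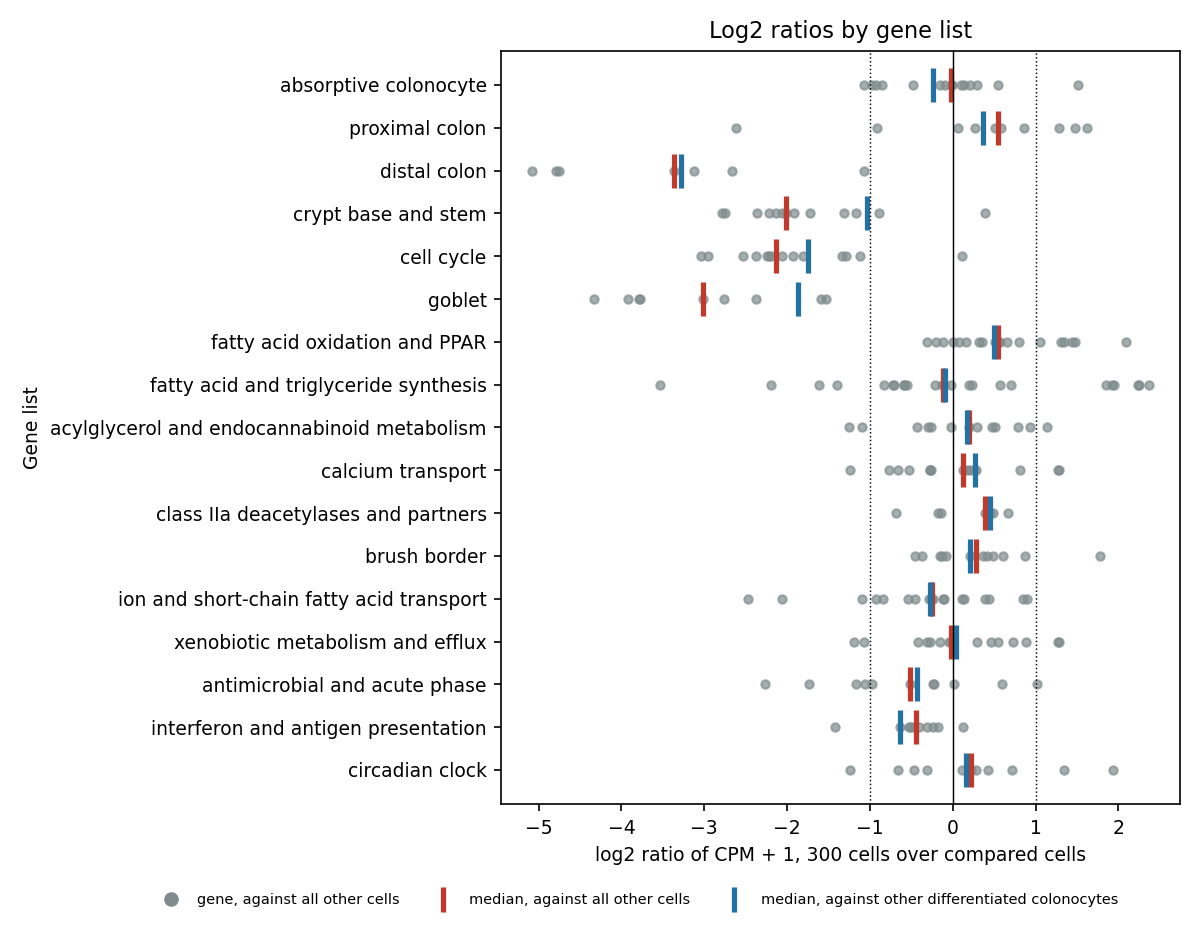
Log2 ratio of CPM + 1 of each measured list gene in the 300 cells over all other antibiotic cells (grey points), with the median of the list against these cells (red) and against the other differentiated colonocytes (blue). Dotted lines mark 2-fold, and the distal colon, crypt, cell cycle and goblet lists lie to the left while fatty acid oxidation lies to the right of 0.

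The 300 cells were next compared with the other differentiated colonocytes. These were 2140 antibiotic cells that passed the same filters and had a higher mean over the absorptive than over the crypt list, so the counts of those 2 lists follow in part from the choice. Of 6145 ranked genes 361 (5.87%) were higher in the 300 cells and 831 (13.5%) lower, with a median of -0.06, and the counts were 360 and 824 without shallower entries. The 8 highest genes were Gpat3, St3gal5, Simc1, Chst11, Tbc1d9, Me1, Cidec and Crybg2, all of them among the 12 above. Gpat3 was 4.88-fold (4.35 to 5.48) higher than in these cells (33.9, 23.6 and 25.4 CPM by cell set), and Cidec 4.396-fold (3.75 to 5.14) higher. Of the fatty acid oxidation genes 5 of 19 were higher, without Ehhadh, with a median of 0.498. In this comparison 19 of the 113 calls made against all other antibiotic cells were lost. Among them, besides Stk39 and Nrbp2, log2 ratios were -0.99 for Per1, -0.94 for Atp2a3, -0.76 for Rora and -0.71 for Lpin1. Those of Dagla, Foxa3 and Ehhadh were -0.68, -0.51 and 0.94. The log2 ratio of Chst11, 2.15, was 1.52 without cell set 3.

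Some products of the mature surface were lower in this comparison. Of 15 absorptive genes 4 were lower and Emp1 was higher. Lypd8 was at 1990.2 and 4512 CPM in the 300 and in the other differentiated cells, Guca2a, the peptide guanylin, at 1305 and 2871 CPM, Car4, a membrane carbonic anhydrase, at 152 and 322 CPM, and Aqp8 at 11.2 and 28.5 CPM. Fabp2 was at 440.4 and 958 CPM, and Car2, a cytosolic carbonic anhydrase, at 336 and 702 CPM. The 300 cells were thus lower in these products than cells of like class. The 8 lowest genes were Fxyd4, Sycn, Atp12a, B3gnt7, Hoxb13, Sval1, Timp3 and Mptx1. Mptx1 was at 49.8, 30.6 and 756 CPM in the other differentiated cells of cell sets 1, 2 and 3, so its log2 ratio of -4.12 was -1.10 without cell set 3. That of Sval1, -4.19, was -3.38 without cell set 3, and that of Sycn went from -5.23 to -6.13.

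The 300 cells were also set against 3 like groups, each the 300 highest cells by other genes after the same filters, without the cells they share with the Hdac9 Slc8a1 colonocytes. They were chosen by S100g and Defb37 (254 cells, 46 more shared), by Clca4a, Slc13a1 and Grin3a (249 cells, 51 shared) and by Saa1, Aqp8 and Car4 (288 cells, 12 shared). Against the first, 876 of 6161 ranked genes (14.2%) were higher in the 300 cells and 1180 (19.2%) lower. Against the second, 541 of 5881 (9.2%) were higher and 554 (9.42%) lower. Against the third, 942 of 5966 (15.8%) were higher and 842 (14.1%) lower. Without shallower entries the pairs of counts were 879 and 1182, 536 and 560, and 938 and 840. Mitochondrial genes took 10.5%, 11.0% and 10.3% of UMI in these groups, against 17.0% in the 300 cells, and the part of this difference was not tested. All 3 groups were deeper than the 300 cells, with medians of 11717, 11898 and 15800.5 UMI against 10095.5 UMI. The part of depth was not tested either.

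Pparg was higher than in each like group, at 1149 CPM against 304, 353 and 258 CPM in the order above. Gpat3 was at 129 CPM against 28.9, 31.1 and 28.97 CPM, and Hdac4, which was not called against all other cells, at 124 CPM against 51.2, 48.8 and 30.7 CPM and higher than in each. Cyp2c55 was at 4468 CPM against 4198, 2305 and 2101 CPM. Its level in the S100g and Defb37 group thus lay close to that in the 300 cells. Of 10 proximal genes 5, 4 and 3 were lower in the 300 cells, beside 19.2%, 9.42% and 14.1% of ranked genes. Higher were 1, 0 and 1, with list medians of -0.98, -0.36 and -0.10. S100g, Defb37, Clca4a, Slc13a1 and Grin3a are in this list and chose the first 2 groups, so their levels there follow from that choice. Of the measured distal genes 0 of 2, 1 of 1 and 5 of 5 were lower. Of 18 measured fatty acid oxidation genes 3, 5 and 8 were higher than in the 3 groups, beside 14.2%, 9.2% and 15.8% of ranked genes, and the first of these counts is near its background.

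Most interferon and antigen presentation genes were lower than in the like groups: 6, 9 and 8 of 10 measured members, with medians of -1.11, -1.49 and -1.60, beside 19.2%, 9.42% and 14.1% of ranked genes. Isg15 was at 17.7 CPM against 71.7, 176 and 173 CPM. Absorptive colonocyte genes were lower for 5 of 14, 7 of 15 and 8 of 15, beside the same shares of ranked genes. Aqp8 and Car4 are in this list and chose the third group, so their lower levels against it follow from that choice. Lypd8 was at 1990.2 CPM against 6421, 7483 and 10428 CPM.

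The 4 genes furthest apart in each direction differed from group to group. Over the S100g and Defb37 cells they were Ly6m (33.1 and 1.02 CPM), March3 (180.5 and 11.01 CPM), a ubiquitin ligase, St3gal3 (231 and 20.2 CPM), a sialyltransferase, and Baiap2 (76.9 and 6.66 CPM), which shapes actin at the membrane. Lower were Nupr1 (13.8 and 94.96 CPM), a stress response protein, Spink1 (22.9 and 135 CPM), a trypsin inhibitor, the histone Hist2h2aa1 (3.91 and 21.8 CPM) and Smim27 (5.48 and 28.4 CPM). Ly6m had 4 UMI in the compared cells, a ratio of 32.3-fold (12.3 to 121), and its log2 ratio of 4.08 was 3.44 without cell set 3.

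Over the Clca4a, Slc13a1 and Grin3a cells the highest were Igdcc4 (35.5 and 2.85 CPM), Acacb (33.9 and 3.42 CPM), Pde8b (58.2 and 6.85 CPM), a cyclic AMP phosphodiesterase, and Utp20 (28.4 and 3.14 CPM), which processes ribosomal RNA. The lowest rested on few of the compared cells. Tafa1, a secreted peptide, had 0 UMI in the 300 cells against 47.1 CPM, at least 60.2-fold lower. Asic2, an acid-sensing channel, had 1 UMI against 48.5 CPM, Kcnb2, a potassium channel, 2 UMI against 35.95 CPM, and Ctnna2, an alpha catenin, 3 UMI against 62.8 CPM. The ratio of Asic2 was 186-fold (32.9 to 7389.6). All UMI of these 4 genes in the 249 compared cells lay in 6, 6, 4 and 4 cells (Tafa1, Asic2, Kcnb2 and Ctnna2). Enteroendocrine markers summed to 88.2 CPM in the compared cells (54.5 to 174 over cell sets, 3 of 10 at 0 UMI) against 11.7 CPM in the 300 cells (3.08 to 18.1). Chga, a granule protein of enteroendocrine cells, was at 9.70 CPM there from 4 cells and at 0.522 CPM in the 300, and Chgb at 16.5 CPM from 7 cells and at 1.04 CPM. The part of such cells in these 4 genes was not tested. Without cell set 3 the log2 ratio of Asic2 went from -5.30 to -4.58 and that of Pde8b from 2.91 to 3.62.

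Over the Saa1, Aqp8 and Car4 cells the highest were Lrmda (81.4 and 2.75 CPM), Gulp1 (35.7 and 1.69 CPM), an adaptor of engulfment, Igdcc4 (35.5 and 1.903 CPM) and Rbms3 (52.7 and 3.38 CPM), an RNA-binding protein. The lowest were Atp12a (0.522 and 112 CPM), Fxyd4 (1.04 and 98.96 CPM), Saa1 (108 and 3255 CPM), which chose the compared cells, and Tgm3 (12.5 and 348 CPM), a transglutaminase. Without cell set 2 the log2 ratio of Lrmda was 5.32 in place of 4.46, that of Gulp1 4.499 in place of 3.77 and that of Saa1 -5.76 in place of -4.89. Without cell set 3 those of Lrmda, Gulp1, Rbms3, Fxyd4 and Tgm3 were 3.84, 2.98, 4.45, -6.53 and -5.30, and without cell set 1 that of Fxyd4 was -4.17, from -5.61.

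**Figure D3:**
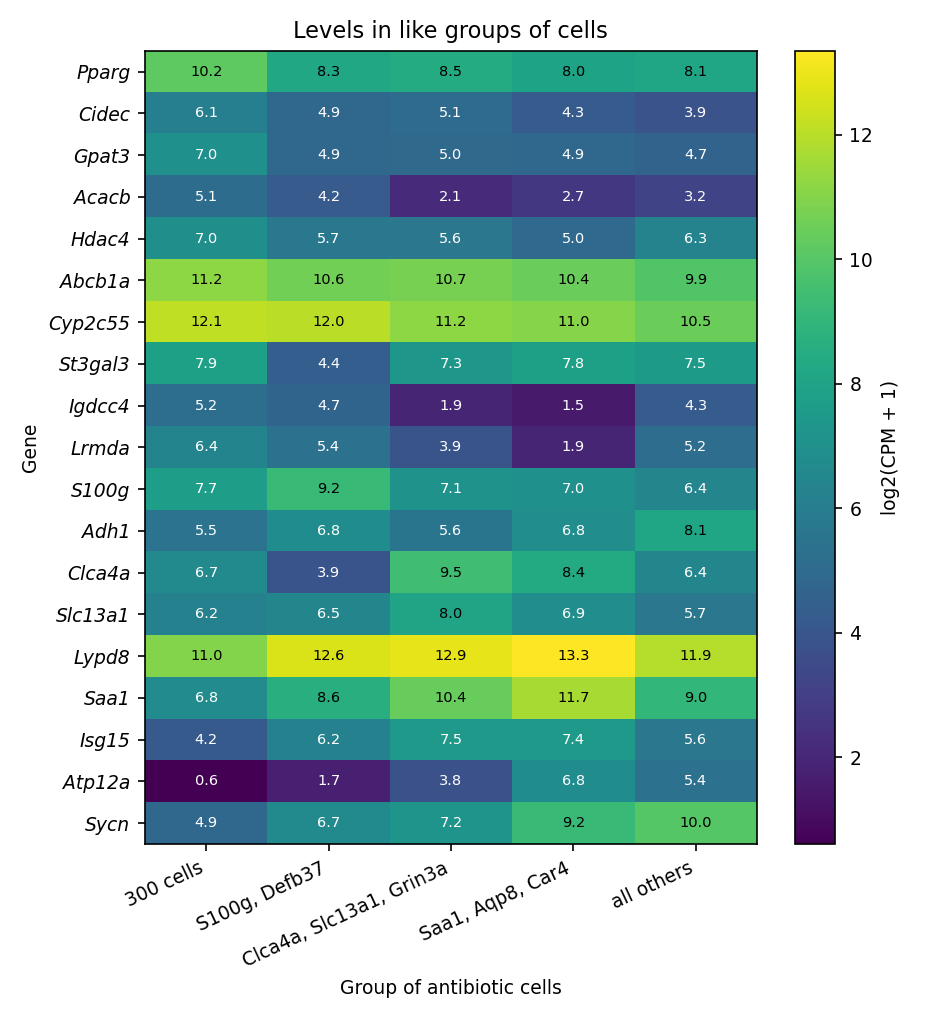
Log2(CPM + 1) of 19 genes (rows) in 5 groups of antibiotic cells (columns), with the value written in each field and shown by colour. Pparg and Gpat3 are highest in the 300 cells, Cyp2c55 is nearly as high in the S100g and Defb37 cells, and Saa1 is lowest in the 300 cells.

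The same levels ran on beyond the limit of 300 cells. In successive bins of 300 cells by score, from ranks 1 to 300 through 1801 to 2100, Pparg was at 1149, 559, 388, 313, 265, 196 and 124 CPM. It was lower in each next bin, and Cyp2c55, at 4468, 3628, 3088, 2140.2, 1081, 642 and 162 CPM, did so too. Abcb1a went from 2311 to 436 CPM and Emp1 from 1745 to 122 CPM between the first and the last of these bins. Sycn went the other way, at 28.9, 37.2, 134, 275, 721, 1205 and 2332 CPM, and so did Hoxb13, at 2.35, 4.96, 9.81, 29.4, 50.5, 103 and 209.5 CPM. Lypd8 was neither: it was at 1990.2, 3789.8, 4913, 5305, 4899.9, 4559 and 3229.8 CPM, highest in the fourth bin. Saa1 was at 108, 259, 345, 413, 886, 890.3 and 741 CPM. The percent of cells with distal above proximal genes was 0, 0.667, 4, 12.7, 18.3, 30.7 and 41.3 in these bins. Bins of lower score held less of the genes of the score by construction, and the values are a description along that order.

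**Figure D4:**
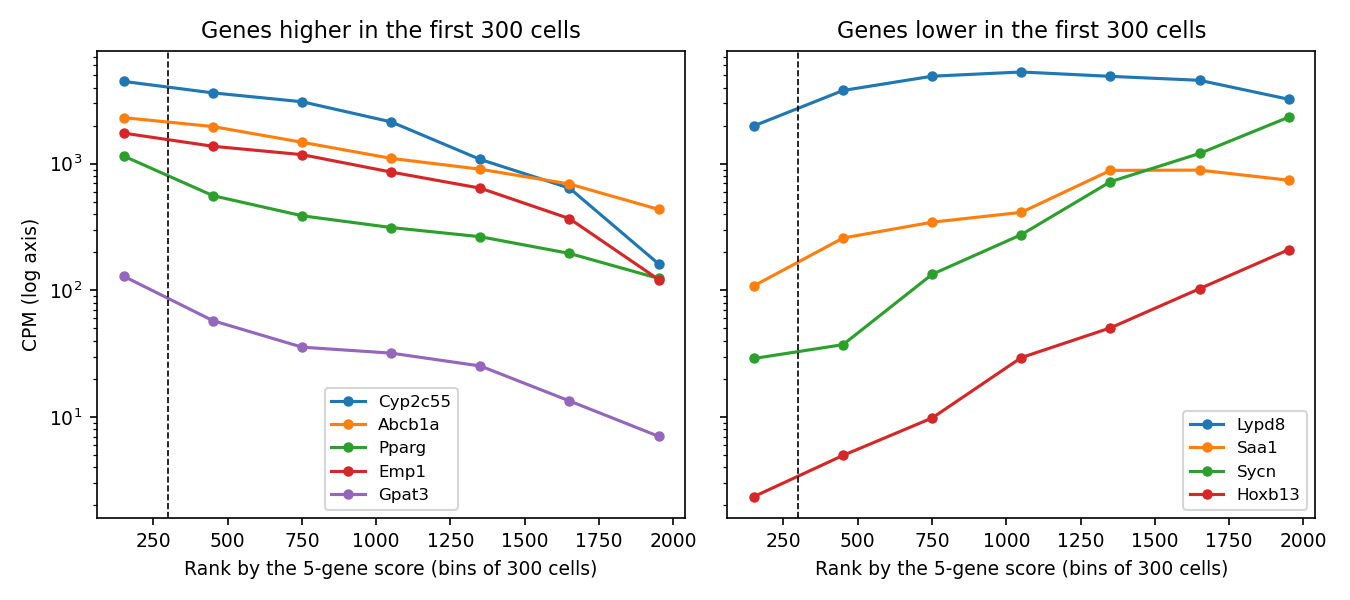
CPM (log axis) in successive bins of 300 antibiotic cells ranked by the 5-gene score, from rank 1 to 2100, for genes higher (left) and lower (right) in the first 300 cells, which lie left of the dashed line. Pparg goes from 1149 to 124 CPM and Hoxb13 goes from 2.35 to 209.5 CPM, while Lypd8 is highest in the fourth bin.

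Germ-free cells were not used by the rule. Of 768 germ-free cells 589 passed its filters, and 35 of them (8 in germ-free cell set 3 and 27 in set 4) reached the score of the last of the 300 cells. They held 151298 UMI, with a median of 3778, so that 3 counts correspond to 19.8 CPM. The genes of the score were high in them by choice, with Hdac9 at 535 and 40.7 CPM in these 35 and in the other germ-free cells. Pparg, which the choice did not use, was at 727 and 267 CPM (exact Poisson interval 598 to 876 in the 35 cells), or 629 and 739 against 274 and 267 CPM by cell set (3, then 4). Cyp2c55 was at 1302 and 450.2 CPM and Emp1 at 1196 and 434 CPM. These pairs lie in the same order as in the antibiotic pool. The other germ-free cells take in cells that failed the filters, and no set of differentiated germ-free cells was compared. The mean over the absorptive list minus that over the crypt list had medians of 1.21 in the 35 cells and 0.615 in the others. The part of maturity in these pairs was not tested, so their order is no replication. Sycn was at 33.05 and 938 CPM from 5 UMI in the 35 cells, Saa1 at 59.5 and 302 CPM from 9 UMI, and Hoxb13 at 6.61 and 108 CPM from 1 UMI. Hdac4 was at 66.1 and 77.6 CPM and Lypd8 at 2776 and 2636 CPM. Gpat3 and Cidec rest on 8 and 3 UMI in the 35 cells. Mitochondrial genes took 22.0% and 18.5% of UMI. Condition and batch cannot be told apart, and no level was compared between the pools.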

How the data were processed

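Single-cell 3' libraries of sorted colon epithelium were made from 1 pool of antibiotic-treated and 1 pool of germ-free mice. The table deposited by the authors holds natural log values of 32285 genes in 4183 cells. Cell Ranger 7.0.0, kallisto, bustools and mm10 are named in the submitters' processing notes, with no role given, and how the authors filtered cells is not stated in these sources. The exponential of each value minus 1 sums to 10000 in every cell. Per cell, values divided by the lowest above 0 were whole within 0.01 for 100% of 9481333 entries, so UMI counts were recovered. The design had assumed deposited counts, and the recovered ones were used in their place.

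UMI were summed over the chosen cells and over the compared cells and scaled to CPM. Intervals are at 95% and cover counting error only: exact Poisson for levels, conditional binomial for ratios and exact Clopper-Pearson for shares. Log2 ratios are of CPM + 1, which understates changes of scarce genes. Genes were ranked with at least 100 UMI in both groups together and 20 CPM in the higher one, and called at 2-fold, the same way in all 3 antibiotic cell sets. A list member counts as measured with 100 UMI and need not reach 20 CPM. No test was run, since each condition was 1 pool and the cells were chosen on these values. The members and lists were chosen with earlier results of these data known, and the list of fatty acid and triglyceride synthesis, the work on shared barcodes and the rule for comparing each cell set left out of the other comparisons were added after values had been seen.

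Named genes are the 12 ranked genes furthest apart in each direction against all other antibiotic cells, 8 against the other differentiated colonocytes and 4 against each like group, in the same direction in each cell set. The genes of the rule, ribosomal protein, mitochondrial, Xist and Y genes, Gm42418, AY036118 and gene models were left out of the ranking. Up to 4 measured members of each list with the highest CPM are named by rule, and further list genes were chosen with their values in view. Scrublet, in Scanpy 1.11.5, marked 18 cells (0.43%) as doublets, 7 of them antibiotic and 1 among the 300. That is too few for the caller to be relied on, and the cells were kept.

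Symbols of 31424 of the 32285 genes matched GENCODE vM21 (mm10), which gave positions, and promoters came from RefSeq (GRCm38.p6). On simulated data with 6188 genes ranked, the contrast recovered all 200 genes changed 3-fold and called 0 unchanged ones. The simulated counts had Poisson error around a single pooled profile, with no spread between cells and no choice of cells by score. They check the calculation only and cannot show how many calls in the real cells are reliable. The work was done in Python 3.11.15 with SciPy 1.17.1, NumPy 2.4.6, matplotlib 3.10.9 and pandas 2.3.3. Barcode (MULTI) libraries and control mice were not analysed here. Some genes of the lists are counted but not reported here by name.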

Additional observations from a re-analysis of the deposited data

How the results depend on the processing

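Of 113 genes called among the ranked and list genes, 62 kept their call in all 21 alternatives that leave the 2-fold limit and the minimum for genes as they are, and 51 lost it in at least 1. At a 3-fold limit 74 of the 113 were called, 52 of the 62 among them. Without 1 cell set at a time, the genes higher and lower than in all other antibiotic cells numbered 345 to 371 and 826 to 911, and than in the other differentiated colonocytes 349 to 385 and 777 to 897. Against the S100g, Clca4a and Saa1 groups they numbered 787 to 896 and 851 to 1180, 427 to 530 and 402 to 582, and 703 to 933 and 659 to 872. The distal minus proximal difference was then -5.73 to -5.11 in the 300 cells and -1.47 to -1.39 in the others. Counts moved by over 1.5 times as follows. A 1.5-fold limit gave 817 and 1729 against all others and 939 and 1586 against the other differentiated cells, and a 3-fold limit 83 and 278, and 63 and 219. With no minimum for genes 2286 and 1821 were lower, with a pseudocount of 10 CPM 516 and 494, and with stricter cells (1000 UMI or more, 15% mitochondrial UMI or less) 530 and 361. Thinning to 2000 UMI left 185 genes higher than in the other differentiated cells, and a score without Slc8a1 left 506 lower. The distal minus proximal difference in the 300 cells was -6.27 and -3.52 with pseudocounts of 0.1 and 10 CPM and -4.69 without Mgll in the score. In the others it was -1.55 with 200 cells, -1.36 with 400 cells, -1.50 without Mgll, -1.34 after thinning, -1.15 with stricter cells, -1.21 with a pseudocount of 10 CPM and -1.55 over the other differentiated cells. Log2 ratios turned sign for S100g (-0.54 with 200 cells, -0.39 and -0.41 without Hdac9 and Mgll in the score), Rora (0.55 after thinning, 0.52 with stricter cells), Rrm2 (0.071 with means of per-cell values) and Clca1 (0.18 against cells that passed the filters and 0.18 against other differentiated cells, where goblet-rich cells are left out). The cause of the others was not tested. Thinning left out 877 antibiotic cells, 24 of the 300 among them. No paired analysis was possible because each condition was 1 pool, the numbers only name cell sets and no test was run. Depth limits low genes: 3 counts are 0.782 CPM in the 300 cells.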
